A study of Mus musculus with 4 samples.

Results

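The complement components and receptors measured here were 9 genes, C3, C4b, C2, C1s, Cfb, Serping1, Cd59a, C3ar1 and C5ar1, in the lumbar spinal cord of nerve-injured mice. Their 11 probes were every probe of the array whose gene name equals 1 of these symbols, among 39429 probes with 30222 gene names in all. RNA came from slices of the cord (segments L4 to L5) of ICR males, mice of an outbred stock that were 5 to 6 weeks old at the start, 7 days after partial sciatic nerve ligation (PSL), an injury that produces lasting pain hypersensitivity. All mice carried this injury. In the sham+PSL mice the adrenal glands had been exposed and left in place, and in the ADX+PSL mice they had been removed, after which saline was given to drink. Each operation was sampled at ZT10 and at ZT22, that is 10 and 22 hours after lights on, when circulating glucocorticoids of sham+PSL mice are high and low, respectively. Each of the 4 conditions had 1 array, so a difference between a pair of arrays also holds what differs from mouse to mouse and slice to slice, and it has no replicate check. The number of mice behind each RNA and the side of the cord are not given in the sources used here.

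Complement is a set of plasma and tissue proteins that label targets for removal. The classical pathway starts when C1q, with its proteases C1r and C1s, cleaves C4 and then C2. The alternative pathway is amplified by factor B, the product of Cfb. Both converge on C3, whose fragment C3a acts through C3ar1, and further on C5, whose fragment C5a acts through C5ar1. Serping1 encodes the C1 inhibitor, which blocks C1r and C1s, and Cd59a encodes a membrane protein that blocks the terminal pore. In the spinal cord, C1q is made largely by microglia, C4b by astrocytes and other glia, and early components and Serping1 also by fibroblasts of the meninges. C3 and Serping1 were each read by a pair of probes. The sequences of 3 probes in coding sequence are printed, namely the dimmer probes of C3 and Serping1 and the only probe of Cfb. Counts and calls for C3 and Serping1 rest on their brighter probes, which are not printed. Each printed sequence is the sense strand of the mRNA in lower case, with no stop codon in at least 1 reading frame. The C3 probe lies within 1 exon at chr17:57343678-57343737 on the minus strand (mm9), whereas the Serping1 probe, from 84605968 to 84607474 on chromosome 2, and the Cfb probe, from 34993502 to 34993858 on chromosome 17, also on the minus strand, each bridge an intron.
C3: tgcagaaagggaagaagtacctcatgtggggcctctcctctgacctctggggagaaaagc
Serping1: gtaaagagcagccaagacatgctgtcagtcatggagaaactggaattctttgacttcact
Cfb: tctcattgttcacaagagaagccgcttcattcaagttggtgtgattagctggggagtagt

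Levels are the authors' linear, quantile-normalized intensities, in arbitrary units, with a median of 105 on each array. Levels of different probes are not compared, since probes differ in brightness. A level counted as measured where the image analysis called the spot well above background, which held for 65.1% to 70.1% of probes per array. Where a level was not, its upper limit was the lowest level called well above background on that array, or its own value where that was higher. This lowest level was 14.9 in sham+PSL ZT10, 18.4 in sham+PSL ZT22, 12.8 in ADX+PSL ZT10 and 22.2 in ADX+PSL ZT22. Errors given as ± are the spot errors of the image analysis, on the log2 scale, and cover the reading of a spot and not the spread between mice.

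Some gene lists set these arrays apart before complement is considered. The 10 markers of meningeal fibroblasts, among them Dcn (6864, 6121, 2262 and 2580 in sham+PSL ZT10, sham+PSL ZT22, ADX+PSL ZT10 and ADX+PSL ZT22) and Col1a2 (4780, 3963, 1672 and 1810), summed to 19100 and 17164 on the sham+PSL arrays and to 7056 and 7743 on the ADX+PSL arrays. Each of the 10 was read well above background in sham+PSL mice. The 10 markers of microglia and macrophages, with Itgam and Csf1r the brightest, summed to 85793, 109090, 87381 and 94927 in the same order, highest in sham+PSL ZT22. The 6 red cell genes, led by Hba-a1 and Hba-a2, summed to 18767 in sham+PSL ZT22 and to between 89810 and 135912 on the other 3 arrays. Markers of neurons (Nefl and Snap25 the brightest), astrocytes (Aldoc and S100b) and endothelium (Flt1 and Cldn5) had median log2 ratios of ADX+PSL over sham+PSL of 0.06, -0.01 and -0.03. Of 4 Schwann cell genes, the broadly expressed Pmp22 was bright throughout and Prx was at 466, 247, 40.9 and 36.3. The median log2 ratio of ADX+PSL over sham+PSL of these 4 was -1.77, or -0.97 with levels not well above background raised to their limit. Of 4 liver genes, Apoa1 and Ttr were below background on all arrays, and Alb was well above it on the sham+PSL arrays alone, at 18.5 and 28.3, beside Apoa2 at 2030 to 2400. Fewer cells of a type and less RNA per cell cannot be told apart in such slices. Among 14 clock genes, 9 had the same time direction in both operations. Dbp, a clock output gene, was at 22527 at ZT10 and 16046 at ZT22 in sham+PSL but at 6433 at ZT10 and 13263 at ZT22 in ADX+PSL, and Nr1d1, named after its values were seen, also turned, from 715 and 352 to 189 and 319. Per1, chosen in the same way, was higher at ZT10 in both operations, with a log2 ratio of ZT10 over ZT22 of 0.50 ± 0.20 after the sham operation and 0.41 ± 0.20 after adrenalectomy. For Per2 these ratios were 0.12 ± 0.21 and -0.30 ± 0.22, and for Arntl they were 0.06 ± 0.20 and 0.34 ± 0.20. For several genes, the ADX+PSL direction given by the sample labels is also opposite to the one that the published study lists. The study chose its listed genes for similar levels at both times in ADX+PSL. Most ADX+PSL ratios it gives are thus close to equal, and their directions are weak evidence. The time direction in ADX+PSL is therefore not settled. It is given as labelled, and exchanging the time labels of the ADX+PSL arrays would turn the sign of every such ratio and change the pairing of arrays between operations at each time, whereas the mean over both ADX+PSL arrays would stay.

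**Figure D1:**
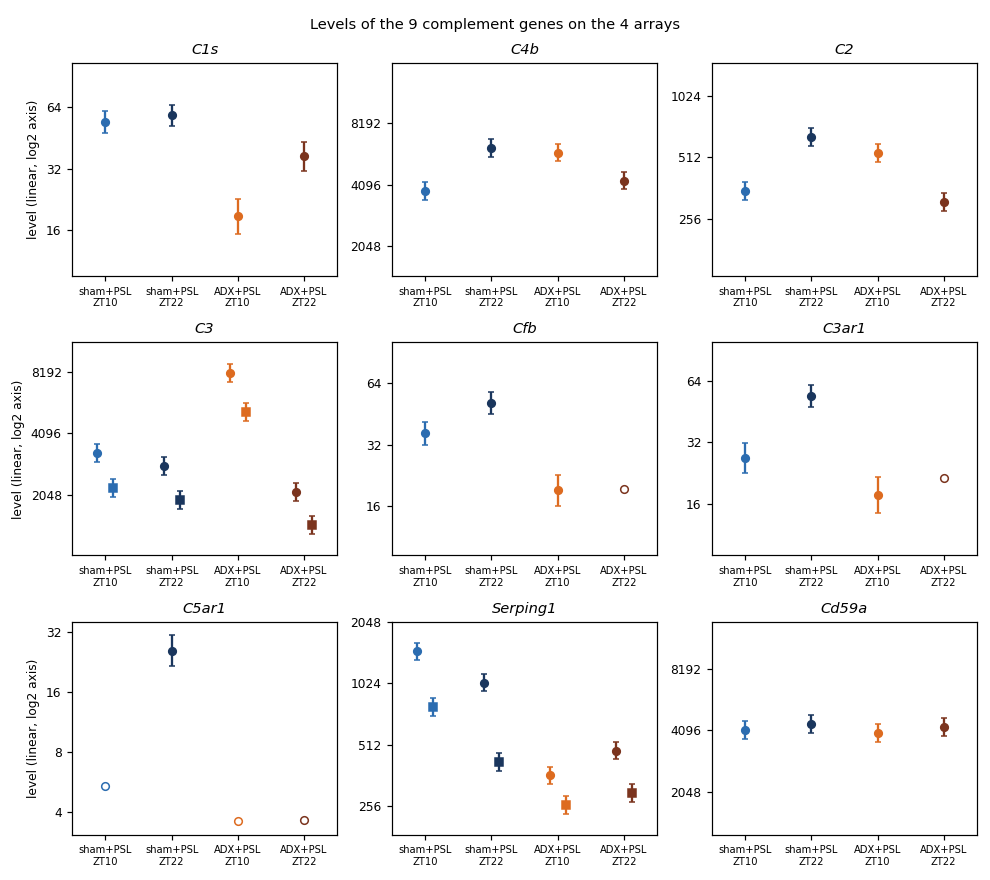
Levels of the 9 complement genes (linear values on a log2 axis) on the 4 arrays, with bars for the spot error and open symbols where a level was not well above background; squares mark the second probe of C3 and Serping1. C3 was highest in ADX+PSL ZT10 on both probes, Serping1, C1s, Cfb and C3ar1 were lower on both ADX+PSL arrays, and Cd59a stayed between 3983 and 4400.

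C3, the component on which all pathways converge, was higher in ADX+PSL ZT10 than on each other array. Its brighter probe, printed as 10 spots per array (chr17:57343416-57343475, minus strand, mm9), was at 3267 in sham+PSL ZT10, 2828 in sham+PSL ZT22, 8079 in ADX+PSL ZT10 and 2109 in ADX+PSL ZT22. The coding probe printed above, a separate stretch of the same mRNA, was at 2218, 1928, 5189 and 1457 in this order. Both probes thus put ADX+PSL ZT10 at the top and ADX+PSL ZT22 at the bottom. The ADX+PSL ZT10 level was 3.83-fold that of ADX+PSL ZT22 on the brighter probe (log2 1.94 ± 0.20) and 3.56-fold on the other. It was 2.47-fold that of sham+PSL ZT10 on the brighter probe and 2.34-fold on the other. In sham+PSL, C3 differed by 1.16-fold between the time points (log2 0.21 ± 0.20), about the size of the spot error.

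The 10 spots of the brighter C3 probe show how firmly each array read it. Before normalization between arrays, their signals ran from 3224 to 3487 in sham+PSL ZT10, from 2631 to 2834 in sham+PSL ZT22, from 7636 to 8200 in ADX+PSL ZT10 and from 2117 to 2321 in ADX+PSL ZT22. The ranges of the 4 arrays did not overlap, and the SD of the log2 signal over the 10 spots was between 0.03 and 0.04 on each array. These spots share 1 RNA per array, so they show the precision of the reading and not of the condition. Of 25012 probes well above background on all 4 arrays, 112 (0.448%) were 1.5-fold or more higher in ADX+PSL ZT10 than on each other array. The mean over both ADX+PSL arrays was higher than that of sham+PSL (log2 0.44 ± 0.14), which rests on the ADX+PSL ZT10 array, since without it the ratio was -0.53. In ADX+PSL ZT10 the summed astrocyte markers were at 327582 against 295811 to 312674 elsewhere, and the fibroblast sum was at its lowest. The red cell sum was 95075, between 18767 in sham+PSL ZT22 and 135912 in sham+PSL ZT10. No marker list had a sum there 1.5-fold above that of each other array. Such sums are led by the brightest genes of a list, and the part of cell content in the C3 values was not tested.

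**Figure D2:**
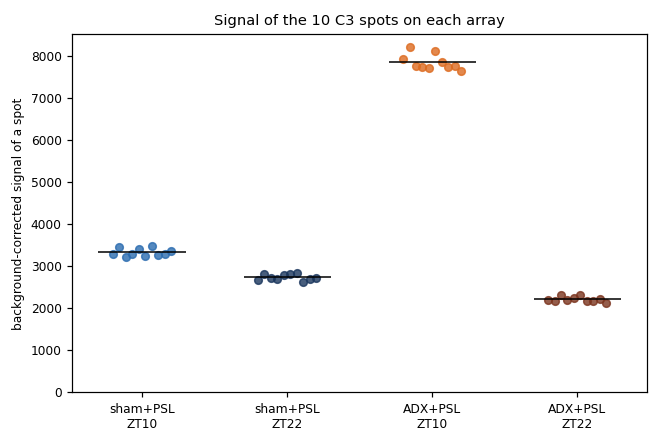
Background-corrected signal (linear axis from 0) of each of the 10 spots of the brighter C3 probe on each array, with a line at their mean. All spots in ADX+PSL ZT10 lie between 7636 and 8200, above every spot of the other 3 arrays.

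The RefSeq promoter table holds 5 of the 9 genes, C3, C3ar1, C5ar1, C1s and Cd59a. The promoter of C3 is printed because C3 alone of the members passed the limits by time in ADX+PSL. It runs from 250 bases before to 50 bases after the start of the gene, at chr17:57228087-57228386 on the minus strand (GRCm38.p6). Capitals mark matches to TTNNGNAA, a short form of the C/EBP site, on either strand. They begin at -70, -58 and -45 from the start, and the one at -45 matches on both strands.
C3 promoter: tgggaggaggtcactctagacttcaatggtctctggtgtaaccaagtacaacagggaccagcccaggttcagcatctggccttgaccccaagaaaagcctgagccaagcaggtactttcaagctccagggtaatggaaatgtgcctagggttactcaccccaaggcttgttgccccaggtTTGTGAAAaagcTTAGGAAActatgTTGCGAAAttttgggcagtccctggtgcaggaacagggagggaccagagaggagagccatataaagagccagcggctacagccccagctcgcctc
This motif is common, with at least 1 match in 40.7% of 27025 promoters. No match was found in the C3 window to the glucocorticoid response element GNACANNNTGTNC (0.463% of promoters), its half-site AGAACA (19.0%), the gamma-activated sequence TTCNNNGAA (8.47%), the interferon-stimulated response element GAAANNGAAA (3.49%) or the E-box CACGTG (7.24%), each searched on both strands. Of the other promoters, that of C1s held 2 TTNNGNAA matches, at -242 and -52, and 1 AGAACA match, that of C5ar1 held 1 TTNNGNAA match, at -157, and that of Cd59a 1 GAAANNGAAA match. These are matches of letters only.

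Serping1 and C1s, the inhibitor and a protease of the C1 complex, were lower in both ADX+PSL samples than in either sham+PSL sample. Serping1, the C1 inhibitor, was at 1469 in sham+PSL ZT10, 1033 in sham+PSL ZT22, 363 in ADX+PSL ZT10 and 481 in ADX+PSL ZT22 on its brighter probe (chr2:84605663-84605722, minus strand, mm9). The exon-bridging probe printed above gave 788, 423, 260 and 297. The groups did not overlap on either probe. The mean ADX+PSL level was 2.95-fold below that of sham+PSL on the brighter probe (log2 -1.56 ± 0.14) and 2.08-fold below on the other (log2 -1.06). C1s, the C1 protease that cleaves C4 and C2 (C1s1 in RefSeq, chr6:124480775-124480834, minus strand, mm9), was at 54.2, 58.5, 18.7 and 36.9 in the same array order. It was dim but well above background on all 4 arrays, with log2 -1.10 ± 0.23 and a 2.90-fold difference at ZT10 against 1.59-fold at ZT22.

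Of other genes of the same step, C1qa, C1qb, C1qc and C1ra lay on the same side, and C1rb (log2 0.02) did not. C1qc, a chain of C1q printed as 10 spots, was at 2196, 3402, 1490 and 1798 (log2 -0.74), with C1qa (2709, 3809, 1952 and 2579) and C1qb (1261, 1798, 914 and 1233) at log2 -0.52 and -0.50. All 3 were highest in sham+PSL ZT22. C1ra, the partner protease of C1s, was read by 2 probes that gave log2 -0.85, with a level in ADX+PSL ZT22 not well above background, and -1.61. C1rb, a near copy of C1ra, was close to background (24.1, 25.5 and 28.2, and 22.5 not well above it). Beside these genes, the fibroblast list had a median of log2 -1.47, with 9 of its 10 genes lower on both ADX+PSL arrays, and the microglia list a median of -0.31, with 4 of 10. The Schwann cell list had a median of -1.77, or -0.97 with levels not well above background raised to their limit, with 2 of 4 genes lower on both. The part of these lists in the Serping1, C1s and C1q values was not tested.

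By the rule for the likeness of patterns, the 5 genes whose log2 levels, centred over the 4 arrays, lay nearest to those of Serping1, the member with the widest range among those measured on all 4 arrays, were Bmp6 (Euclidean distance 0.07), Mrc1 (0.15), Creb3l3 (0.21), Gm17019 (0.24) and Cd74 (0.29). Mrc1, the mannose receptor of tissue and perivascular macrophages, was at 177, 113, 45.5 and 59.2. Cd74, the invariant chain of MHC class II, was at 605, 457, 197 and 218. With 4 points per gene, such likeness is a description only.

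C4b and C2, the substrates of C1s, had a different pattern, high in sham+PSL ZT22 and in ADX+PSL ZT10. C4b (chr17:34865328-34865387, minus strand, mm9) was at 3832 in sham+PSL ZT10, 6177 in sham+PSL ZT22, 5885 in ADX+PSL ZT10 and 4296 in ADX+PSL ZT22. Its probe may also read the near-identical C4a, which has no probe of its own name. C2 (chr17:34999575-34999634, minus strand, mm9) was at 350, 642, 539 and 309 in the same order. Both genes were thus lower at ZT10 in the sham-operated mice, with log2 ratios of ZT10 over ZT22 of -0.69 ± 0.20 for C4b and -0.88 ± 0.20 for C2, and higher at ZT10 after adrenalectomy, with ratios of 0.45 ± 0.20 and 0.80 ± 0.20. Averaged over time they showed little difference between operations, with log2 ratios of ADX+PSL over sham+PSL of 0.05 and -0.22, each ± 0.14. Of the 25012 probes measured on all 4 arrays, 2.61% were lower at ZT10 in sham+PSL and higher in ADX+PSL, each past its spot error, as were 2 of the 6 members so measured. No Z-score limit was passed by either gene. With the time labels of the ADX+PSL arrays exchanged, an alternative chosen after seeing the data, both genes would be lower at ZT10 in both operations, with ADX+PSL ratios of -0.45 for C4b and -0.80 for C2, and the ratios of the operations would then differ by -0.23 and -0.08.

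Interferon-stimulated genes are given beside C4b and C2, since both are known to be inducible by interferon. Of 14 measured, 7 (Irf7, Ifit1, Isg15, Oasl2, Oas2, Rtp4 and Usp18) had this same turn of direction past the spot error, as labelled. Isg15, a ubiquitin-like effector, was at 799, 1213, 1123 and 866, and Usp18, which removes it, was at 118, 202, 167 and 100. The list's median log2 ratio by time, ZT10 over ZT22, had values of -0.52 (sham+PSL) and 0.20 (ADX+PSL), beside 0.01 in each over the 28845 probes that were well above background somewhere. Isg15 was also the fourth-nearest gene to C4b (distance 0.09) and Usp18 the nearest to C2 (0.09). The likeness was looked up for C4b, C2 and C3 after their values were seen. Nearer to C4b than Isg15 were Tpmt (0.04), a probe without a gene symbol (0.04) and Ng23 (0.09), and Itgb3 (0.10) came next. After Usp18, the genes nearest to C2 were A830052D11Rik (0.11), Slc25a46 (0.19), Tmem14c (0.19) and Gtf2a1 (0.20). None of these further neighbours is on the interferon list. Nor is any of the genes nearest to C3, which were A730020M07Rik, 4930415F15Rik, Gm5607, Endou and Icmt, at distances of 0.32 to 0.38. Other complement genes with this turn were 5 of 31 measured on all 4 arrays, namely C1rl, Hc, Cd55, Cd46 and Gpr77. Hc, which encodes C5, was at 60.7, 80.9, 81.8 and 64.0, and Cd55, a membrane regulator that dissociates convertases, was at 406, 519, 510 and 347.

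**Figure D3:**
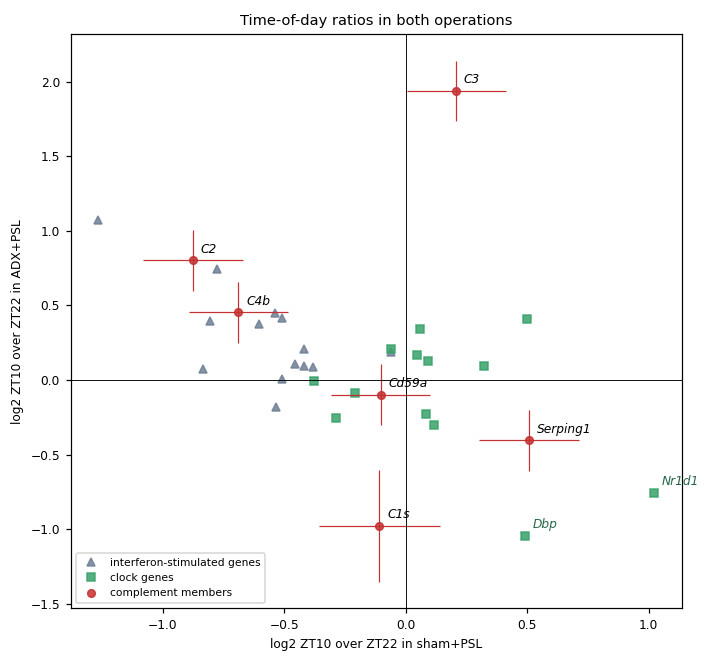
Log2 ratio of ZT10 over ZT22 in sham+PSL (horizontal) and in ADX+PSL (vertical) for the members, interferon-stimulated genes and clock genes that were well above background on all 4 arrays, with spot errors for the members. C2 (-0.88, 0.80) and C4b (-0.69, 0.45) lie in the upper left with most interferon-stimulated genes, C3 (0.21, 1.94) at the top, and Serping1 (0.51, -0.41) in the lower right with Dbp and Nr1d1.

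C2 and Cfb are adjacent protein-coding genes in the RefSeq order of chromosome 17, and C4b is separated from Cfb by 5 others, Cyp21a1, Stk19, Dxo, Skiv2l and Nelfe. All 3 lie in the MHC class III region, but Cfb did not have the pattern of C2 and C4b. Cfb, the protease of the alternative pathway, was at 36.4 in sham+PSL ZT10, 51.4 in sham+PSL ZT22 and 19.1 in ADX+PSL ZT10, and it was not well above background in ADX+PSL ZT22 (19.5). It was 1.90-fold lower in ADX+PSL than in sham+PSL ZT10 and at least 2.31-fold lower at ZT22. Of the remaining alternative pathway genes, Cfd, the protease that activates factor B, was at 16.1 and 31.9 at ZT10 in sham+PSL and ADX+PSL and not well above background on either ZT22 array. Cfp, encoding properdin, which stabilizes the convertase, was at 792, 793, 1040 and 974, higher on both ADX+PSL arrays (log2 0.34). Cfi, encoding a protease that inactivates C3b and C4b, was at 73.1, 101, 49.0 and 53.8, lower on both ADX+PSL arrays (log2 -0.74).

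The anaphylatoxin receptors were dim and brightest in sham+PSL ZT22. C3ar1, the receptor of C3a (chr6:122798222-122798281, minus strand, mm9), was at 26.7 in sham+PSL ZT10, 53.8 in sham+PSL ZT22 and 17.7 in ADX+PSL ZT10, and not well above background in ADX+PSL ZT22 (21.3). Within sham+PSL it was 2.02-fold higher at ZT22 (log2 ratio of ZT10 over ZT22 -1.01 ± 0.30), and at least 2.42-fold higher than in ADX+PSL ZT22. C5ar1, the receptor of C5a (chr7:16832243-16832302, minus strand, mm9), was well above background in sham+PSL ZT22 alone, at 25.8. Given the limits of the other arrays, this is at least 1.73-fold above sham+PSL ZT10 and at least 1.16-fold above ADX+PSL ZT22. For C5ar1 the Z-score limits were passed through readings below background (5.39, 3.58 and 3.62), so the bounds are the measurement.

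Some other receptors had the same top array. Gpr77 (C5ar2 in RefSeq), the second C5a receptor, was at 61.4, 140, 81.0 and 63.4, and its dimmer probe was well above background in sham+PSL ZT22 alone, at 65.7. Itgax, a subunit of complement receptor 4, was at 94.8, 338, 96.8 and 110. Itgam, a subunit of complement receptor 3, did not stand out on its brightest probe (44355, 53144, 51198 and 50946), and a dimmer probe was at 184, 437, 166 and 358. The dimmest Itgam probe was at 43.5, 51.4, 71.8 and 43.1, highest in ADX+PSL ZT10. Cr2, the receptor of C3d on B cells, had another order on its brightest probe, with 99.5, 63.9, 52.0 and 110, highest in ADX+PSL ZT22. Its dimmer probe was at 26.4, 30.9, 17.5 and 27.8, highest in sham+PSL ZT22, so the Cr2 probes differed in their top array. Of 37 other complement genes, 5 (C1qc, Cd46, Cd59b, Gpr77 and Itgax) were 1.5-fold or more higher in sham+PSL ZT22 than on each other array, beside 1.61% of all probes. C3ar1 was the 1 member that met this. On that array the microglia list was at its highest, 109090 against 85793 to 94927, and the red cell genes at their lowest, and the part of either in the receptor values was not tested.

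Cd59a, the inhibitor of the terminal pore, was the member with the narrowest range. It was at 4098, 4400, 3983 and 4265 in the usual order (chr2:103954688-103954747, plus strand, mm9), so that each difference between arrays was within the spot error. Its log2 ratio was -0.04 ± 0.14 between operations and -0.10 ± 0.20 by time in each operation. Clu, a soluble inhibitor of the same step and an abundant astrocyte product, ranged from 82499 to 89840. Cr1l, the rodent membrane regulator Crry, was at 800, 1106, 911 and 1007. Vtn, vitronectin, printed as 10 spots, was at 3798, 3825, 1874 and 2879 (log2 -0.71).

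**Figure D4:**
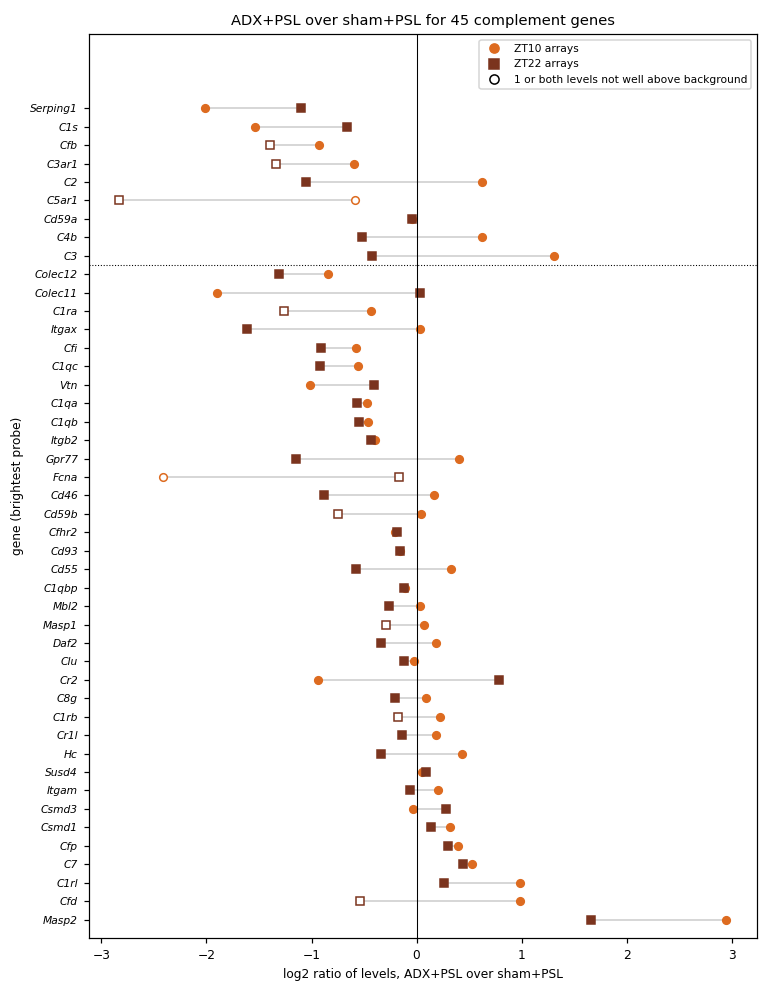
Log2 ratio of levels, ADX+PSL over sham+PSL, at ZT10 (circles) and at ZT22 (squares) for the 9 members (above the dotted line) and 36 other complement genes on their brightest probe; open symbols mark a level not well above background. Serping1 and C1s lie left of 0 at both times, C2, C4b and C3 on opposite sides by time, and Masp2 furthest to the right.

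Among the lectin pathway genes, which sense sugars and share C4 and C2 with the classical pathway, Masp2 was higher on both ADX+PSL arrays. It was at 22.8, 130, 176 and 410 on its brightest probe (log2 2.30), and a second probe gave 52.9, 70.8 and 140 on the arrays after the first, where it was not well above background. Its sham+PSL arrays differed 5.69-fold from each other (log2 ratio of ZT10 over ZT22 -2.51), more than the operations. Masp1, its relative, was near background (28.6, 27.6 and 30.0, and 22.5 not well above it). The dimmer Masp1 probes and the dimmest Masp2 probe were not well above background on any array. Colec11 (123, 43.7, 32.8 and 44.8) and Colec12 (71.0, 82.2, 39.7 and 33.2), collectins that bind sugars, were at log2 -0.93 and -1.07, and the groups did not overlap for Colec12. Fcna, a ficolin, was well above background in sham+PSL ZT10 alone, at 25.4. C1rl, a C1r-like protease, was higher on both ADX+PSL arrays (104, 145, 207 and 174, log2 0.62). Of 56 other complement genes listed, 47 were on the array by name, and 10 of these, among them C6, C8a, C8b, C9 and Mbl1, were below background throughout.

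Counted over the members, 4 of 9 (Serping1, C1s, Cfb and C3ar1) had both ADX+PSL levels below either sham+PSL level, beside 14.9% of 28845 probes, and 0 of 9 were higher on both, beside 17.0%. Of the 37 other complement genes, 11 were lower and 5 higher. These counts set no limit on size: among the 11, Clu (log2 -0.08) and C1qbp (log2 -0.11) were within their spot error of 0.14. The median log2 ratio of ADX+PSL over sham+PSL was -0.97 over the members, -0.22 with dim levels raised to the limit of their array, -0.11 over the other complement genes and 0.00 over all probes. By the limits of the study's methods (Z-score of 2 and ratio of 2), 1 member, C5ar1, was lower at ZT10 in sham+PSL (2.03% of probes) and 1, C3, was higher at ZT10 in ADX+PSL (2.06%). Between operations at ZT10, C3 was higher in ADX+PSL (2.09%) and C1s and Serping1 were lower (2.42%), and at ZT22 C3ar1, C5ar1 and Cfb were lower (2.09%). C4b, C2 and Cd59a passed in none of the 4 comparisons. These calls depend on the limits: those of C3ar1, C5ar1 and Cfb at ZT22 and of C5ar1 in sham+PSL each fell to 0 with both arrays required to be well above background or with normexp background correction, C3 between operations at ZT10 missed the limits after a 75th percentile shift, and 1 of the calls of C1s and Serping1 was lost with normexp. With the ADX+PSL time labels exchanged, C3 would be called lower at ZT10 in ADX+PSL and higher between operations at ZT22 in place of ZT10, Serping1 would be called lower at both times, and C1s at ZT22 in place of ZT10.

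The limma additive fit of operation and time has 1 residual degree of freedom, which is how far the time effect differs between operations. The error of each probe is drawn by limma from this difference towards a value shared by all probes fitted. The limma fit called 0 of 28845 probes (0.0%) at an adjusted p of 0.05 for operation and 0 for time. At an unadjusted p under 0.05 it gave 1803 probes (6.25%) and 1420 probes (4.92%). For operation, limma's adjusted p was 0.758 for Serping1 (SE 0.29), 0.712 for Cfb, 0.778 for C1s and C3ar1, and 0.942 for C3. No member passed, and a p that misses the threshold does not show that levels were alike.

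**Figure D5:**
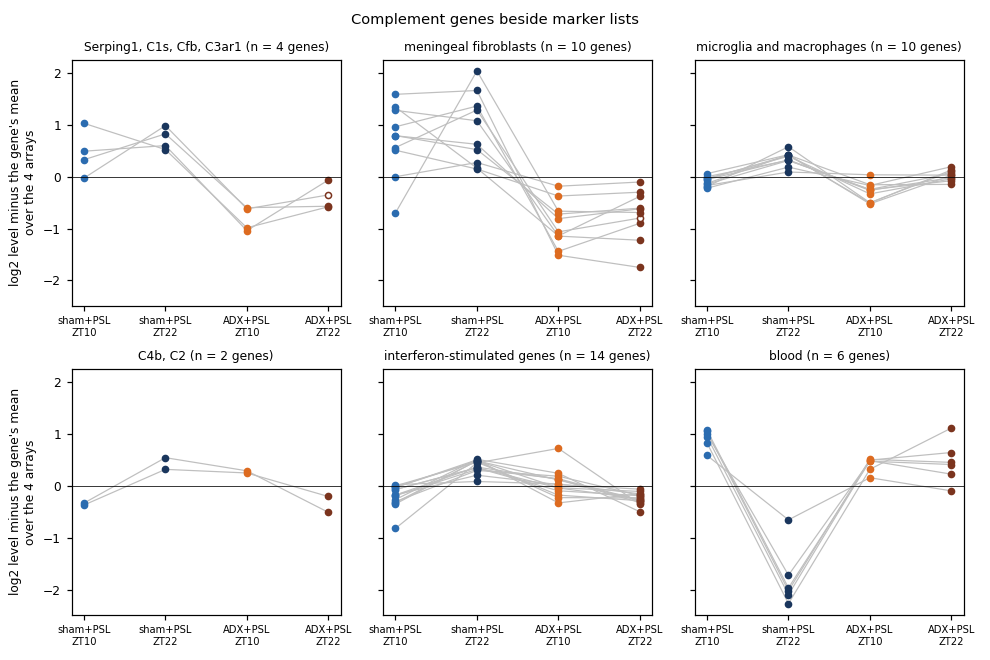
Log2 level of each gene minus its mean over the 4 arrays, by array, for 2 groups of complement members (left) and for 4 gene lists, with a line per gene and open symbols where a level was not well above background. Serping1, C1s, Cfb and C3ar1 are lower on both ADX+PSL arrays, as are 9 of 10 meningeal fibroblast genes; C4b, C2 and the interferon-stimulated genes other than Oas2 are highest in sham+PSL ZT22, where the red cell genes are lowest.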

How the data were processed

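Spinal mRNA of 4 conditions was measured with 1 Agilent 60-mer array each, all on 1 slide, and samples were grouped by their titles. The authors deposited scanner files with spot intensities (background-corrected signal, its error, raw and background means, flags) and a table of linear intensities, quantile-normalized over the arrays. The scale of that table was settled from its values: ranks equal those of the processed signal within each array, sorted values differ between arrays by at most 0.0357%, the median is 105 on every array, and no centring was applied. The labels give Feature Extraction 9.5.1.1 and the file headers 10.7.1.1. No spot was saturated. With 4 arrays, their number sets the precision.

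Levels are that table's values. The Z-score, not defined in the sources used here, was the centred log2 ratio divided by the SD of all 39429 probes. A call needed a Z-score of 2 (or -2) with a ratio of 2 (or 0.5) and the brighter array well above background. The additive fit used limma 3.58.1 in R 4.3.3 with Benjamini-Hochberg adjustment, and was tested on simulated data. Other steps used Python 3.11.15, numpy 2.4.6 and pandas 2.3.3. The brightest probe stood for a gene, and all 11 member accessions matched RefSeq (GRCm38.p6), the source of symbols, gene order and promoters. The files give probe positions on mm9.

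The members and gene lists (other complement genes, interferon-stimulated genes, clock genes and markers of microglia, astrocytes, meningeal fibroblasts, blood, endothelium, neurons, Schwann cells and liver) were chosen with earlier results of these data known. Named genes were the members, complement genes with a difference between operations of 1.5-fold or more, 15 further complement genes, the 5 nearest in pattern to the member of widest range, the 2 brightest genes of marker lists, and Per2, Dbp and Arntl. Alternatives were the processed signal quantile-normalized here, a 75th percentile shift, normexp background correction (offset 50), other call limits and filters, an intensity trend, the mean over probes and each array left out. An exchange of the ADX+PSL time labels was added after seeing the data. The values of 1 gene of the complement list are not reported here, and it counts in the list's totals.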

Additional observations from a re-analysis of the deposited data

Results flagged for a closer look

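For 3 members measured on all 4 arrays, the time direction was opposite in the 2 operations, each past its spot error. With 1 array per condition these differences were not tested. The log2 ratio of ZT10 over ZT22 in sham+PSL minus that in ADX+PSL was -1.14 for C4b, -1.68 for C2 and 0.91 for Serping1. Of 25012 probes measured on all arrays, 5.39% had opposite directions past the spot error, and 3.07% had a difference of 1 or more in size. As stated above, the time direction in ADX+PSL is not settled. With the ADX+PSL time labels exchanged, an alternative chosen after seeing the data, none of these 3 genes would run opposite by operation past the spot error, and the differences would be -0.23 for C4b, -0.08 for C2 and 0.10 for Serping1. As labelled, C3 was higher at ZT10 in both operations, with a difference of -1.73. It would be opposite with the labels exchanged, with a difference of 2.15, as would 7.93% of probes. In that case 4.11% of probes would have a difference of 1 or more in size.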

How the results depend on the processing

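No paired analysis was possible because each condition had 1 array and the labels carry no replicate numbers. Over 123 log2 ratios of single members under the alternatives, 93 moved by no more than the spot error and 30 by more. Leaving out 1 array took the C3 ratio of ADX+PSL over sham+PSL (0.44) from -0.53 to 1.41, C4b from -0.30 to 0.39, C2 from -0.65 to 0.22 and Cd59a from -0.09 to 0.01, while Serping1 stayed between -1.81 and -1.31 and C1s between -1.59 and -0.61. Cfb lay between -1.41 and -0.91, C3ar1 between -1.47 and -0.46 and C5ar1 between -2.84 and -0.58, but these ranges use readings not well above background. With such readings raised to the limit of their array and no array left out, the ratio was -1.07 for Cfb, -0.94 for C3ar1 and -0.21 for C5ar1. With normexp, whose offset pulls dim ratios towards 0, the ratio of ADX+PSL over sham+PSL was -0.24 for C3ar1, -0.33 for C5ar1, -0.41 for Cfb, -0.40 for C1s and -1.37 for Serping1.

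Members lower at ZT10 in sham+PSL (1 by the main limits) numbered 2 by a ratio of 2 alone (2.5% of probes) and 4 by a ratio of 1.5 (5.36%). They numbered 0 with Z-scores in 20 bins of level, with both arrays well above background, or with normexp. In ADX+PSL a ratio of 1.5 gave 2 higher (1) and 1 lower (0), beside 4.98% and 3.95% of probes. Between operations at ZT10, a ratio of 1.5 gave 3 higher (1) and 4 lower (2), beside 5.9% and 5.65% of probes. There the 75th percentile shift gave 0 higher, since C3 then missed the Z-score limit, and Z-scores in bins and normexp each gave 1 lower. At ZT22, members lower (3) numbered 5 by a ratio of 2 alone (2.72% of probes) and 6 by a ratio of 1.5 (5.59%). They numbered 0 with both arrays well above background or with normexp. The count with both ADX+PSL levels below both sham+PSL levels was 4 or 5 of 9 for members and 9 to 13 of 37 for other complement genes throughout. With the ADX+PSL time labels exchanged, chosen after seeing the data, the C3 ratio by time in ADX+PSL was -1.94 (from 1.94). Members then called numbered 0 higher (1) and 1 lower (0) by time in ADX+PSL, beside 463 and 575 of all probes. Between operations at ZT10 they numbered 0 higher (1) and 1 lower (2), beside 462 and 625. At ZT22 they numbered 1 higher (0) and 5 lower (3), beside 584 and 717. Calls over all probes, between 421 and 687 per comparison and direction, ranged from 93 with both arrays well above background to 1671 by a ratio of 1.5.

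The limma fit called 0 probes for operation and 0 for time, but 10 and 9 with normexp, 13 and 11 on probes well above background on all arrays, and 39 and 14 with an intensity trend. The lowest adjusted p of a member under any setting was 0.0949. Dim levels limit C5ar1, C3ar1, Cfb and C1s, and the cause of the other shifts was not tested.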
